A study of Mus musculus with 37 samples.

Results

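The genes described here encode enzymes that metabolize foreign compounds and carcinogens, and the receptor that controls several of them. They are the aryl hydrocarbon receptor Ahr, the cytochromes P450 Cyp1a1, Cyp1b1, Cyp2e1 and Cyp2f2, the P450 oxidoreductase Por, the epoxide hydrolase Ephx1, the N-acetyltransferases Nat1 and Nat2, and the sulfotransferase Sult1a1. They were chosen by name, and all 10 had a row among the 24421 gene symbols of the count table. In ureter of mice given the carcinogen BBN, Cyp1b1 RNA was higher and Por RNA lower than in untreated ureter, and on the cancerous side Ahr was also higher and Cyp2e1, Nat1 and Sult1a1 were lower. Some of these differences no longer passed the threshold when both ureters of a mouse were summed. They were those of Cyp1b1 and Por on the side without cancer, and of Ahr and Cyp2e1 on the cancerous side. In the BBN bladder the lowered genes were Cyp1a1 and Cyp2f2, and the change of Cyp1a1, which was already low in untreated ureter, differed between bladder and ureter.

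Metabolism of foreign compounds runs in phases. In the first, P450 enzymes of the endoplasmic reticulum oxidize the compound with electrons passed to them by POR, or a hydrolase opens a reactive epoxide, and in the second, transferases couple the product to acetyl, sulfate or glucuronic acid groups. Many procarcinogens become reactive only after such a step, so the same enzymes activate and detoxify. AHR is a transcription factor that waits in the cytoplasm, enters the nucleus when a ligand binds, pairs with ARNT and switches on Cyp1a1, Cyp1b1 and other genes through sites with the core GCGTG. BBN, N-butyl-N-(4-hydroxybutyl)nitrosamine, is a nitrosamine that causes urothelial cancer in rodents and is oxidized in the body to an acid that reaches the urothelium with the urine.

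All 10 are protein coding, and their places in GRCm38 (GENCODE vM21) are Ahr on chromosome 12 (35497974 to 35535038, minus strand), Cyp1a1 on 9 (57687928 to 57703824, plus), Cyp1b1 on 17 (79701537 to 79715061, minus), Cyp2e1 on 7 (140763739 to 140774987, plus) and Cyp2f2 on 7 (27119909 to 27133660, plus). Por lies on chromosome 5 (135670033 to 135735326, plus), Ephx1 on 1 (180976210 to 181020904, minus) and Sult1a1 on 7 (126672865 to 126676432, minus). Nat1 (67480921 to 67492104, plus) and Nat2 (67494858 to 67502584, plus) are neighbouring, related genes on chromosome 8. Ahr, Cyp2f2, Por, Ephx1 and Sult1a1 overlap another annotated gene, in part on the opposite strand, and whether counting used strand is not given in the sources used here. Values were fractional in 29.7% of libraries for Sult1a1, 10.8% for Cyp1a1 and 2.7% for Ephx1, and in 0% for Nat1, Nat2, Ahr, Cyp1b1, Cyp2f2 and Por.

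Whole-transcriptome sequencing (WTS) had been done on 37 libraries of wild-type female BALB/c mice. Mice drank BBN for 18 weeks, and the controls drank tap water. In BBN mice, UT stands for ureter tissue from the side with cancer (11 libraries) and UN for the side without (7), U for the ureter of untreated mice (6, both ureters of 3 mice), and bladders came from BBN mice (10) and from the same 3 untreated mice (3). UT 5L and UT 5R were taken from a single mouse, and 6 mice gave both a UT and a UN library to the fits. Each library is a piece of whole tissue, so for every gene below fewer cells of a type and less RNA per cell cannot be told apart.

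Totals ranged from 3557697 counts in BBN bladder 3 to 18793560 in a U library. BBN bladders 1, 3 and 4 had an RNA integrity number under 5 and placed 22.4, 29.5 and 21.5% of their counts on their 10 most abundant genes, and UN 6 had 4675081 counts with 35.5% on 10 genes. UT 9, which is not among the 10 UT libraries the study analysed, and BBN bladder 6, whose library name carries a T, were left out of the fits, which leaves 35 libraries, but are part of all levels below. The sum of 8 white adipocyte markers was 41900 to 64740 CPM in U, 9566 to 55880 in UN, 91.0 to 34840 in UT, 82.3 to 4474 in BBN bladder and 263 to 1900 in untreated bladder. The sum of 10 urothelium markers was 1480 to 2872 CPM in U, 27.1 to 5974 in UN, 907 to 7232 in UT, 1135 to 7781 in BBN bladder and 19350 to 20400 in untreated bladder, and none of these 10 was under 1 CPM in all libraries of a group. The kidney tubule sum reached 2292 CPM in UT 4 and the hepatocyte sum 1304 CPM in BBN bladder 3, while the 4 markers of airway-type secretory cells summed to at most 5.68 CPM in any library.

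CPM is the usual depth-scaled level of a gene within a library. Fold changes are given as log2 values fitted by edgeR's quasi-likelihood test with TMM-scaled library sizes ± the standard error (SE), and FDR is the Benjamini-Hochberg adjusted p over all genes tested. A gene was called at FDR under 0.1 and at least a 2-fold change. The plot of levels by library shows how far the groups lie apart and how widely the BBN libraries spread.

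**Figure D1:**
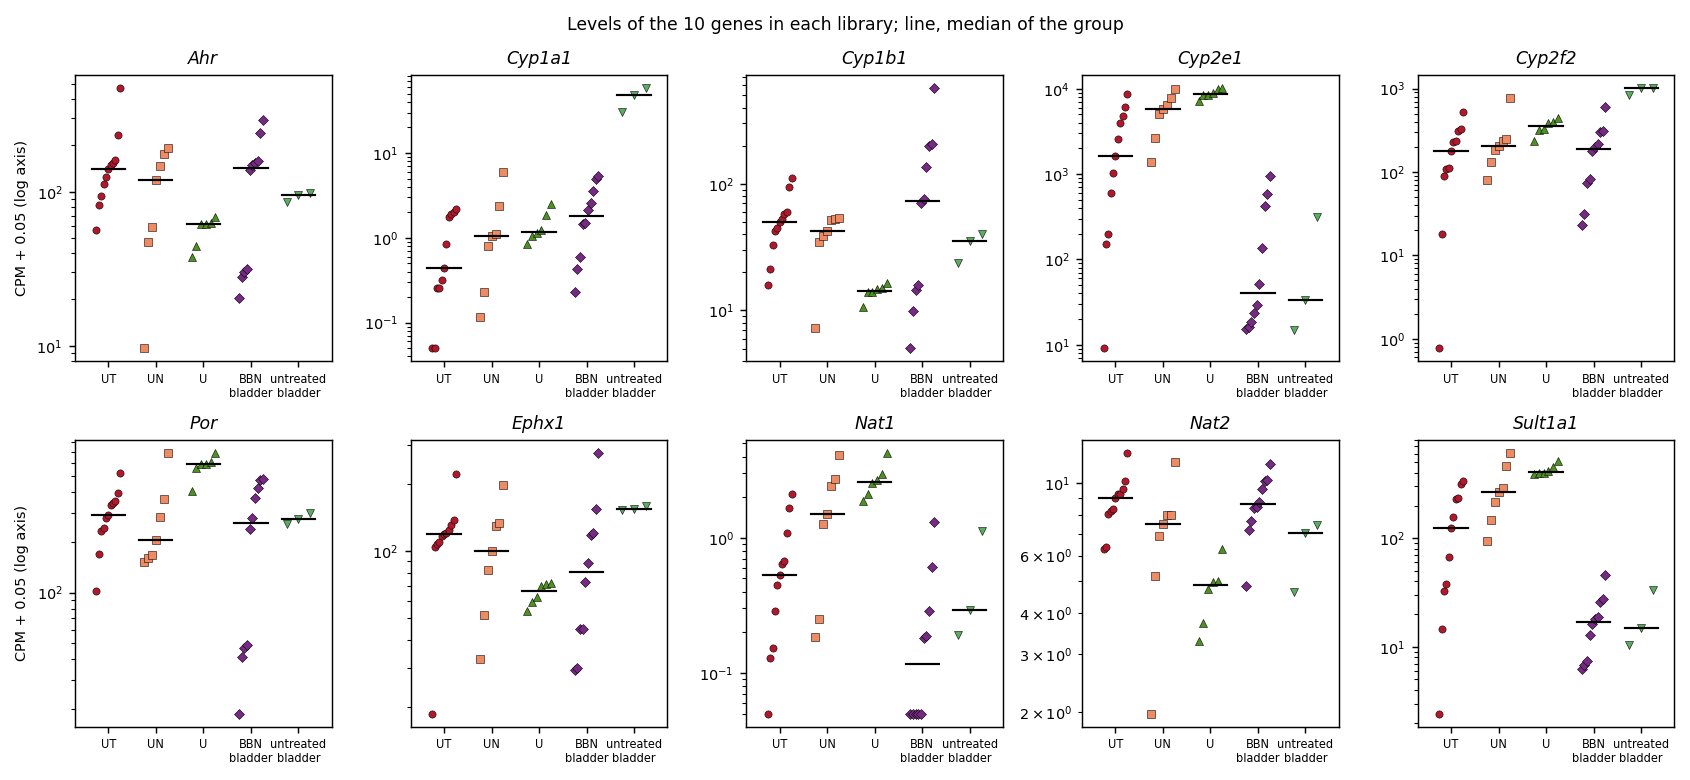
Level of each of the 10 genes in every library as CPM + 0.05 on a log axis, by group (UT 11, UN 7, U 6, BBN bladder 10, untreated bladder 3 libraries); points are libraries and the line is the group median. Cyp1a1 stands 30.3 to 59.1 CPM high in untreated bladder and at most 5.86 CPM in any other library, and Cyp2e1 and Sult1a1 are high in U and low in both bladder groups.

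Ahr, the receptor, was low in untreated ureter and higher and more variable after BBN. In U it was 37.6 to 68.1 CPM (median 61.8), in UN 9.60 to 193 (median 120), and in UT 56.5 to 475 (median 141). In BBN bladder it was 20.4 to 294 CPM (median 143), and the 3 untreated bladders had 85.7, 95.3 and 98.5 CPM. All 10 UT libraries of the fit lay above all U libraries, UT 9 lay within them, and UN and both bladder groups overlapped their controls. Ahr rose in UT against U by 1.30 ± 0.40 (FDR 0.011). It was 0.73 ± 0.42 higher in UN than in U (FDR 0.246) and 0.57 ± 0.37 higher in UT than in UN (FDR 0.296), neither past the threshold. The rise in UT fell just short of 2-fold without UT 10 (0.99), the library with the highest level, and missed the FDR threshold with both ureters of a mouse summed (FDR 0.114). In BBN bladder the difference was 0.62 ± 0.52 (FDR 0.44), and without the 3 bladders of low RNA integrity it was 1.007 (FDR 0.0152). In UT against U, 2 of 10 urothelium markers were called higher and 3 lower, with a median of -0.27. Per 1000 CPM of their sum, the median of Ahr was 31.2 in UT, 38.4 in UN with 354 in UN 2, 26.7 in U and 26.6 in BBN bladder, against 4.20, 4.81 and 5.09 in the untreated bladders. Within groups, Ahr correlated over 37 libraries with the urothelium sum at r = 0.824 and with the basal and squamous epithelium sum at r = 0.704 (0.810 and 0.615 over the 33 without UN 6 and the 3 bladders of low integrity), and markers of the latter were higher in 7 of 8 in UT against U (median 7.08). The part of either in the levels of Ahr was not tested.

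Cyp1a1 and Cyp1b1 are the P450s that AHR induces, and both oxidize polycyclic aromatic hydrocarbons and aromatic amines. The 250 bases before their RefSeq transcription starts (GRCm38.p6) are shown because both enzymes moved here, in different tissues and directions, while both windows hold the core that AHR and ARNT bind. Each is read 5′ to 3′ on the strand of the gene, with the core GCGTG, or CACGC where it lies on the opposite strand, in capitals. The Cyp1a1 window is chr9:57697363-57697612 on the plus strand and the Cyp1b1 window chr17:79715062-79715311 on the minus strand.
Cyp1a1: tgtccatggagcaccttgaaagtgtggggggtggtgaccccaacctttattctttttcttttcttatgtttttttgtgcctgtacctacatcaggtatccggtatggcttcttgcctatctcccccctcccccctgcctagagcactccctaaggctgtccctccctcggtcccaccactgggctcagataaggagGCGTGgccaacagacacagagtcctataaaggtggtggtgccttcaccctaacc
Cyp1b1: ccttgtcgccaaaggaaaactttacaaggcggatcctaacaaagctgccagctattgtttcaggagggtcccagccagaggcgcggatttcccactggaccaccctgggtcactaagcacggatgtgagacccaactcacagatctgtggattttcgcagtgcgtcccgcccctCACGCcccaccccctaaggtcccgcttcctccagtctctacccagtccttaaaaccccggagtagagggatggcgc
The core begins 54 bases before the start in Cyp1a1 and 76 bases before it in Cyp1b1. Of the 7 members with an entry among the RefSeq promoters, 3 hold the core on either strand, Cyp1a1, Cyp1b1 and Por, the last with 3 matches. Of all 32851 promoter windows of this length, 28.2% hold it, and a match is a description of the letters, not of a site in use.

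Cyp1a1 was a bladder gene in these mice. The 3 untreated bladders had 59.1, 48.9 and 30.3 CPM, and the BBN bladders 0.181 to 5.29 (median 1.75). In ureter it was low in all groups, 0.805 to 2.45 CPM in U (median 1.13), 0.0668 to 5.86 in UN (median 1.003) and 0 to 2.15 in UT (median 0.389), with no count in 2 UT libraries. The highest BBN bladder thus stayed under the lowest untreated one, while the ureter groups overlapped. Cyp1a1 fell in BBN bladder, with a log2 change of -4.02 (SE 0.51, FDR 0.00029), and kept this call under all 21 alternatives. In UN against U the change was -0.01 ± 0.82 (FDR 0.994, 95% interval -1.61 to 1.59) and in UT against U -1.14 ± 0.74 (FDR 0.214). The BBN effect of the ureter exceeded that of the bladder by 4.04 ± 0.87 (FDR 0.0162), a call kept under 34 of 34 alternatives. Urothelium markers fell in the same bladders, 6 of the 10 called lower and none higher with a median of -2.34, against 0.25 over all genes. Per 1000 CPM of urothelium markers, Cyp1a1 was 2.90, 2.47 and 1.57 in the untreated bladders and 0.0548 to 2.23 in BBN bladders (median 0.523), so on this scale the groups overlapped and the BBN median was still under all 3 untreated values. The markers did not move alike, with 2 of 10 changes positive. Medians of Krt5 and Krt19 were 567 and 1201 CPM in untreated and 1165 and 1543 CPM in BBN bladders. Those of Upk1a and Upk3a were 4391 and 5049 CPM in untreated and 52.1 and 149 CPM in BBN bladders, so the scaled values depend on the markers chosen. The part of the marker change in the fall was not tested.

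Cyp1b1 rose on both sides of the BBN ureter. U libraries had 10.6 to 16.5 CPM (median 14.3), UN 7.27 to 53.7 (median 42.7) and UT 16.0 to 111 (median 49.7). In the bladder, BBN libraries had 4.99 to 576 CPM (median 73.7) and the untreated ones 39.9, 35.03 and 23.8. Of the 7 UN libraries 6 lay above all U libraries and UN 6 lay below them, and of the 10 UT libraries in the fit 9 lay above. The rise was 1.39 ± 0.36 in UN (FDR 0.0141) and 1.57 ± 0.34 in UT (FDR 0.000863), both against the same U libraries, while UT and UN differed by 0.18 ± 0.31 (FDR 0.714, 95% interval -0.42 to 0.78). The UT call held under all 27 alternatives and the UN call under 23 of 24, the exception being both ureters of a mouse summed (FDR 0.198). In the bladder Cyp1b1 was 2.17 ± 1.01 higher after BBN but past no threshold (FDR 0.177). BBN bladder 4, of low RNA integrity, held the lowest value and BBN bladder 10 the highest, and without the 3 bladders of low integrity the difference was 2.68 (FDR 0.0141). The BBN effects of ureter and bladder were not shown to differ for Cyp1b1 (-0.79 ± 0.93, FDR 0.76).

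Cyp2e1, which oxidizes ethanol and small nitrosamines, had the highest level of the 10 per exon length in each ureter library except UT 2 and UT 10, where Por was higher. U libraries had 7173 to 10320 CPM (median 8781), UN 1398 to 9846 (median 5864) and UT 9.08 to 8662 (median 1618). BBN bladders had 15.4 to 963 CPM (median 40.5), and the untreated bladders 33.1, 313 and 14.9. UT spread over almost the whole range, from UT 2 at the bottom to UT 3 among the U libraries, and 9 of the 10 UT libraries in the fit lay below all U libraries. Cyp2e1 fell in UT against U by 2.17 on the log2 scale (SE 0.77, FDR 0.0245), and was 0.73 ± 0.84 lower in UN (FDR 0.592). With both ureters of a mouse summed the FDR in UT was 0.139, the only one of 27 alternatives that ended the call. The fall ran beside that of the adipocyte markers, of which 8 of 8 were called lower in UT with a median of -3.01, against 0.08 over all genes. Per 1000 CPM of adipocyte markers, Cyp2e1 had a median of 212 in UT, 193 in UN, 198 in U and 186 in BBN bladder, and the untreated bladders had 104, 165 and 56.8. The highest values were 929 in UT 4 and 907 in BBN bladder 3, the libraries with the most kidney tubule and hepatocyte marker counts. Within groups, log2 levels of Cyp2e1 and of the adipocyte sum correlated at r = 0.925 over 37 libraries, points that share library and depth, and at 0.931 over the 33 libraries without UN 6 and the 3 bladders of low integrity. The value of Cyp2e1 was fractional in every library, and the source of the fractions was not tested.

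Cyp2f2 is a P450 best known from airway secretory cells, where it activates naphthalene, and it was a second gene of the untreated bladder. The 3 untreated bladders had 842, 1005 and 1029 CPM and the BBN bladders 23.3 to 597 (median 191). U libraries had 238 to 439 CPM (median 356), UN 80.1 to 768 (median 205) and UT 0.72 to 528 (median 178). The bladder groups did not overlap, whereas UN 4 and UT 1 lay above every U library and most other BBN libraries below. The summed airway-type secretory markers were at most 5.68 CPM (above), the highest in BBN bladder 1, and at most 0.466 CPM in the untreated bladders, where Cyp2f2 was highest. Cyp2f2 fell in BBN bladder by 2.08 on the log2 scale (SE 0.55, FDR 0.0291), and the call was lost without any single untreated bladder (FDR 0.116 to 0.147) at changes of -2.18, -2.07 and -2.03. In ureter it was 0.51 ± 0.71 lower in UN (FDR 0.661) and 1.18 ± 0.65 lower in UT (FDR 0.144), neither past the threshold. The difference between the BBN effects of ureter and bladder was 1.57 ± 0.72 (FDR 0.371), and with the mouse as a block it was 2.05 (FDR 0.0836). Per 1000 CPM of urothelium markers, which moved in both directions (above), Cyp2f2 was 41.3 to 53.2 in untreated bladders and 15.8 to 76.7 in BBN bladders (median 38.6), ranges that overlap.

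Por supplies electrons to all microsomal P450s, and it was lower in BBN ureter than in untreated ureter. U libraries had 406 to 685 CPM (median 590), UN 152 to 689 (median 208) and UT 102 to 523 (median 292). BBN bladders had 18.8 to 479 CPM (median 261), and the untreated bladders 278, 299 and 257. Of the UN libraries 6 lay below all U libraries and UN 9 above them, and all 10 UT libraries in the fit lay below, with UT 9 inside the U range. Por fell by 1.05 (SE 0.31, FDR 0.0293) in UN and by 1.40 (SE 0.29, FDR 0.000483) in UT. The fall in UT kept its call under all 27 alternatives. That in UN lies near the 2-fold limit and was lost in 5 of 24, at -0.94 to -0.99 without UN 1, UN 2, UN 3 or U 2L, and at FDR 0.219 with both ureters summed. In the bladder Por did not pass the test (-0.01 ± 0.62, FDR 0.991). The 4 lowest BBN bladders, 18.8 to 48.4 CPM, were the 3 of low RNA integrity and BBN bladder 6, which is outside the fit, and without the first 3 the value was 0.44 on the log2 scale (FDR 0.182).

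Ephx1, the microsomal epoxide hydrolase, opens reactive epoxides to diols and was called in no BBN comparison. U libraries had 53.9 to 72.3 CPM (median 66.0), UN 32.8 to 198 (median 99.9), UT 18.7 to 221 (median 119), and BBN bladders 29.3 to 275 (median 80.6). The untreated bladders had 160, 154 and 154 CPM. BBN libraries thus spread to both sides of their controls, with 9 of 10 UT libraries of the fit above all U libraries and UT 2 below, and 7 of 9 BBN bladders of the fit below the untreated ones. Changes were 0.52 ± 0.34 in UN (FDR 0.309), 0.58 ± 0.32 in UT (FDR 0.139) and -0.45 ± 0.41 in bladder (FDR 0.487). The difference between the tissues, 0.99 ± 0.49 (FDR 0.424), passed the thresholds only with the mouse as a block (1.497, FDR 0.0755).

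Nat1 and Nat2 acetylate aromatic amines, and Nat1 had very few counts. Nat1 was 1.82 to 4.21 CPM in U (median 2.56), 0.135 to 4.06 in UN (median 1.46) and 0 to 2.06 in UT (median 0.478), from at most 66 counts in a library. BBN bladders had 0 to 1.26 CPM (median 0.0662), with no count in 5 of 10, and the untreated bladders 0.139, 1.07 and 0.241, from 2, 16 and 4 counts. All 10 UT libraries in the fit lay below all U libraries, UT 9 lay within them, and UN overlapped with both. Nat1 fell in UT against U by 2.68 on the log2 scale (SE 0.66, FDR 0.0023), a call kept under all 27 alternatives, and against UN by 2.11 (SE 0.66, FDR 0.0515). Per 1000 CPM of adipocyte markers its median was 0.0590 in UT, 0.0585 in UN and 0.0575 in U, and within groups it correlated with their sum at r = 0.653 over 37 libraries (0.667 over 33), and their part in the fall was not tested. The fall against UN was lost in 5 of 28 alternatives, at -1.23 (FDR 0.62) with the RNA integrity number as a covariate, -1.57 (FDR 0.145) without UN 6, -1.76 (FDR 0.117) with all 11 UT libraries, -2.14 (FDR 0.132) with UT and UN alone, and -1.49 (FDR 0.207) with mice as random effects. With the mouse as a block, Nat1 did not pass the filter and 0 of the other 9 members were called. UN 6, with the highest Nat1 level, is also the UN library of lowest total. In UN against U the change was -0.57 ± 0.72 (FDR 0.626). In the bladder Nat1 did not pass the filter on low counts, and its mean was 0.259 CPM after BBN and 0.482 CPM without, a difference of -0.223 CPM (exact permutation p = 0.436, two-sided, n = 9 and 3). It was 0.0689 CPM without untreated bladder 2 and -0.398 CPM without the BBN bladders of low integrity (exact permutation p = 0.0476, n = 6 and 3), a setting chosen after seeing the data.

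Nat2 was called in no comparison. It was 3.24 to 6.25 CPM in U (median 4.83), 1.93 to 11.6 in UN (median 7.46), 6.23 to 12.3 in UT (median 8.96), and 4.78 to 11.4 in BBN bladder (median 8.55). The untreated bladders had 4.60, 6.99 and 7.40 CPM. Every BBN group had a higher median than its control, and every one overlapped it. Nat2 in UT against U passed the FDR threshold but not the 2-fold limit (0.62 ± 0.24, FDR 0.0369), and it was 0.46 ± 0.25 higher in UN (FDR 0.224) and 0.75 ± 0.37 higher in BBN bladder (FDR 0.193).

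Sult1a1, the sulfotransferase that couples sulfate to phenols and activates some hydroxylated carcinogens, followed Cyp2e1. U libraries had 388 to 510 CPM (median 408), UN 94.7 to 612 (median 267) and UT 2.38 to 335 (median 125). BBN bladders had 6.16 to 46.0 CPM (median 17.0) and the untreated bladders 14.9, 33.6 and 10.4. All UT libraries, UT 9 included, lay below all U libraries, and the bladder groups overlapped. Sult1a1 fell in UT against U by 2.03 on the log2 scale (SE 0.62, FDR 0.0106), a call kept under all 27 alternatives. It was 1.46 ± 0.60 lower in UT than in UN (FDR 0.11), just outside the threshold, 0.56 ± 0.68 lower in UN than in U (FDR 0.609), and 0.59 ± 0.74 higher in BBN bladder (FDR 0.617). The gene is among those that the study listed as lower in UT than in UN from these libraries, so its direction in that comparison is not independent evidence. It correlated within groups with Cyp2e1 at r = 0.909 and with the adipocyte sum at r = 0.881 over 37 libraries (0.933 and 0.897 over 33). Per 1000 CPM of adipocyte markers its median was 17.9 in UT, 10.7 in UN and 8.64 in U, and 48.1 in BBN bladder, where the untreated bladders had 17.7 to 47.0 (median 39.6).

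**Figure D2:**
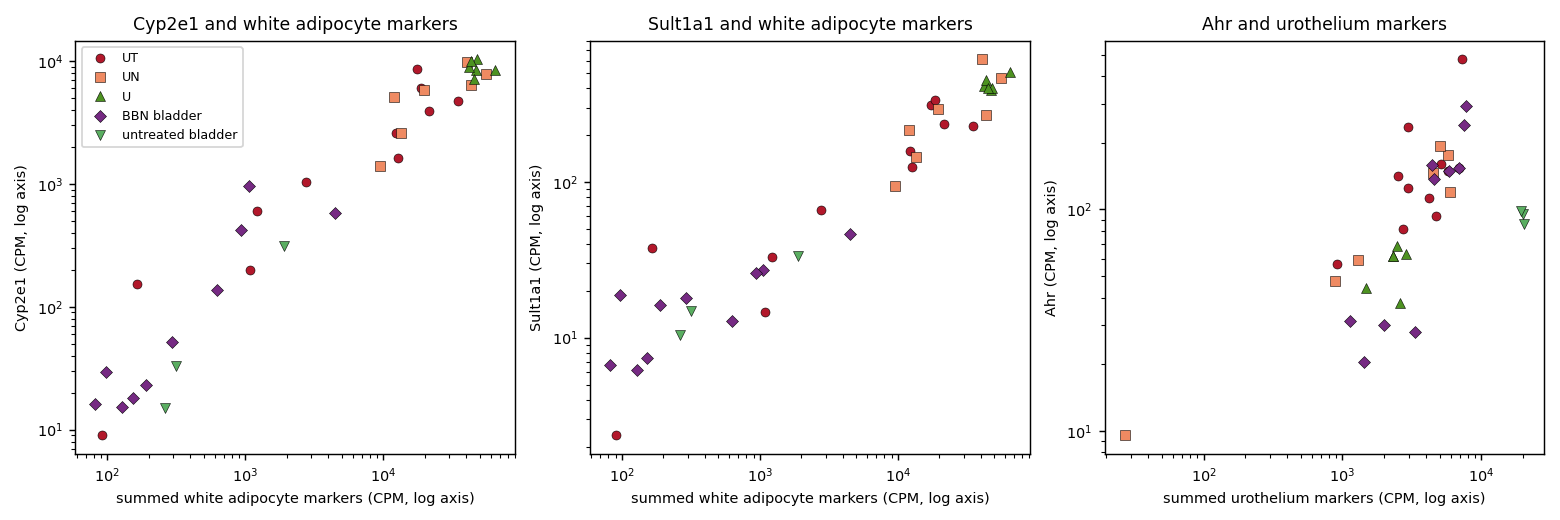
Cyp2e1 and Sult1a1 against the summed level of 8 white adipocyte markers, and Ahr against that of 10 urothelium markers, in CPM on log axes; each point is 1 of 37 libraries and the symbols give the groups. Cyp2e1 rises with the markers over all groups, at a median of 186 to 212 per 1000 CPM of markers in UT, UN, U and BBN bladder with UT 4 (929) and BBN bladder 3 (907) far above, while the 3 untreated bladders lie apart from the other libraries for Ahr.

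Scaled for exon length, the 10 genes made up different sets in the tissues. CPM per kilobase of annotated exon allows levels of different genes to be compared. Cyp2e1 held 84.1 to 88.9% of the length-scaled sum of the 10 in U, 66.1 to 87.8% in UN, and 5.07 to 87.7% in UT. In the untreated bladders Cyp2f2 held 57.6 to 72.5%, Por 8.62 to 10.8% and Cyp2e1 0.988 to 16.9%. BBN bladders had medians of 27.6% for Cyp2f2, 17.6% for Por and 12.3% for Cyp2e1, the Por median above every U, UN and untreated bladder library, with Cyp2e1 at 86.6% in the highest library. Of the 10 genes, 7 had their highest mean in an untreated group, U for Cyp2e1, Por, Nat1 and Sult1a1 and untreated bladder for Cyp1a1, Cyp2f2 and Ephx1, and this number did not change with TMM-scaled library sizes.

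**Figure D3:**
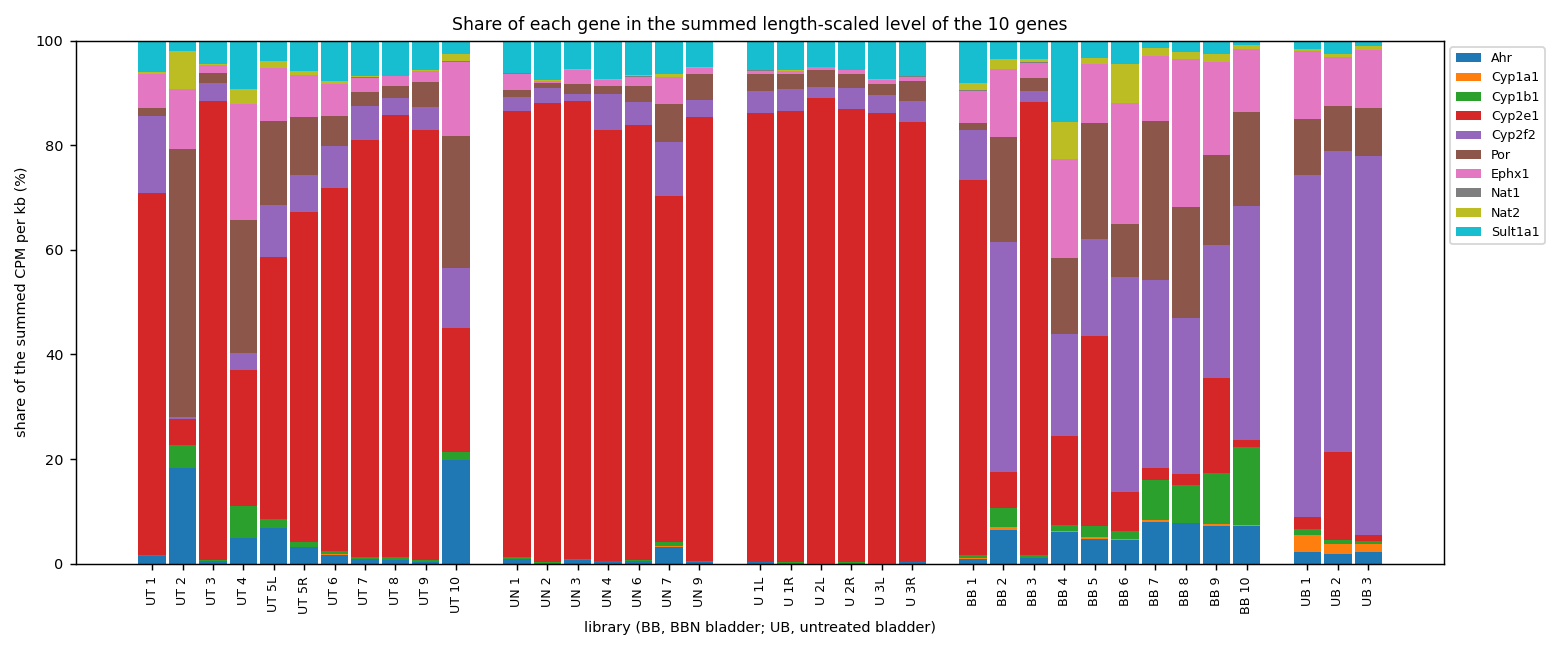
Share in % of each gene in the sum of CPM per kilobase over the 10 genes, stacked for each library; BB is BBN bladder and UB untreated bladder. Cyp2e1 fills 84.1 to 88.9% of every U bar, and Cyp2f2 57.6 to 72.5% of every untreated bladder bar.

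The comparison of UN with U asks what BBN exposure did to ureter without cancer. Cyp1b1 was higher and Por lower, and the other 8 members were not called. That is 1 of 10 members called higher against 11.8% of the 15621 genes tested, and 1 called lower against 1.66%. Both calls were lost with both ureters of a mouse summed (FDR 0.198 for Cyp1b1 and 0.219 for Por). The median change of the members was -0.26 and that of all genes 0.08. Among 91 tested genes of the pathway lists, 13 were called higher and 0 lower, a list median of 0.02. Of the AHR pathway, 3 of 10 tested genes were higher, the detoxifying enzymes Gsta1 (2.50), Aldh3a1 (2.38) and Nqo1 (1.51), and of the hydrolases and carbonyl reductases 5 of 15. The AHR list did not rise as a whole, with 5 of 10 changes positive and a median of 0.004, against 0.08 for all genes. The largest rises were those of Ugt2b34 (3.63 ± 0.91, FDR 0.0124), a glucuronosyltransferase, Sult2b1 (3.59 ± 0.61, FDR 0.000955), a sterol sulfotransferase, Cyp3a13 (3.05 ± 0.83, FDR 0.0187) and the carboxylesterase Ces2e (2.93 ± 0.70, FDR 0.00944). The highest UN levels of Sult2b1 and Cyp3a13 were 5.85 and 4.21 CPM. The calls of Ugt2b34, Cyp3a13 and Ces2e were lost with mice as random effects, and again with both ureters summed. Ces2e, at 82.4 CPM in UN 1, rose by 1.79 without that library (FDR 0.0306). In the same comparison 7 of 8 basal and squamous epithelium markers were called higher, with a median of 5.53, and so were 5 of 5 tested neutrophil markers (median 3.52) and 3 of 6 macrophage markers (median 1.38). Their part in the rises was not tested.

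The comparison of UT with U put cancerous tissue beside untreated ureter and shares its U libraries with the preceding one. Cyp1b1 and Ahr were higher, and Cyp2e1, Por, Nat1 and Sult1a1 lower. That is 2 of 10 members called higher against 18.5% of all genes, and 4 lower against 14.4%. With both ureters of a mouse summed, the calls of Ahr (FDR 0.114) and Cyp2e1 (FDR 0.139) were lost. In CPM the fitted groups did not overlap for Ahr, 1 member higher against 20.7% of genes, and for Por, Nat1 and Sult1a1, 3 members lower against 6.78%. The members' median was -1.16 and that of all genes 0.08. Of 91 pathway genes 23 were higher and 19 lower. The falls were led by hydrolases and esterases, Ces1d (-3.37 ± 0.69, FDR 0.000504), Ces1f (-3.36 ± 0.84, FDR 0.00243), Bche (-3.23 ± 0.83, FDR 0.00301) and the soluble epoxide hydrolase Ephx2 (-3.16 ± 0.58, FDR 0.000209), and the acetyl and methyl transferases had 4 of 6 lower and 0 higher. Large fitted rises were those of Sult1d1 (7.88), Sult1c2 (5.95) and Cyp2a5 (5.93), and single libraries carried much of each. Sult1d1 was 549 CPM in UT 4, against a UT median of 0.595, and was not tested without that library. Its call was lost with DESeq2 (1.87, FDR 0.141), limma-trend (1.97, FDR 0.204) and mice as random effects (2.42, FDR 0.309). Sult1c2, 87.2 CPM there, rose by 3.57 without it (FDR 0.00335). UT 4 is the library with 2292 CPM of kidney tubule markers, and all 5 tested markers of that list were called higher in UT (1 to 5 with any single library left out). Cyp2a5, which can share reads with Cyp2a4, was 192 CPM in UT 5L and rose by 3.32 without it (FDR 0.0386). Beside these changes, white adipocyte markers were lower in 8 of 8 (median -3.01) and smooth muscle markers in 7 of 8 (median -1.76), and basal and squamous epithelium markers were higher in 7 of 8 (median 7.08) and neutrophil markers in 5 of 5 tested (median 4.27). Their part in the pathway genes was not tested.

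**Figure D4:**
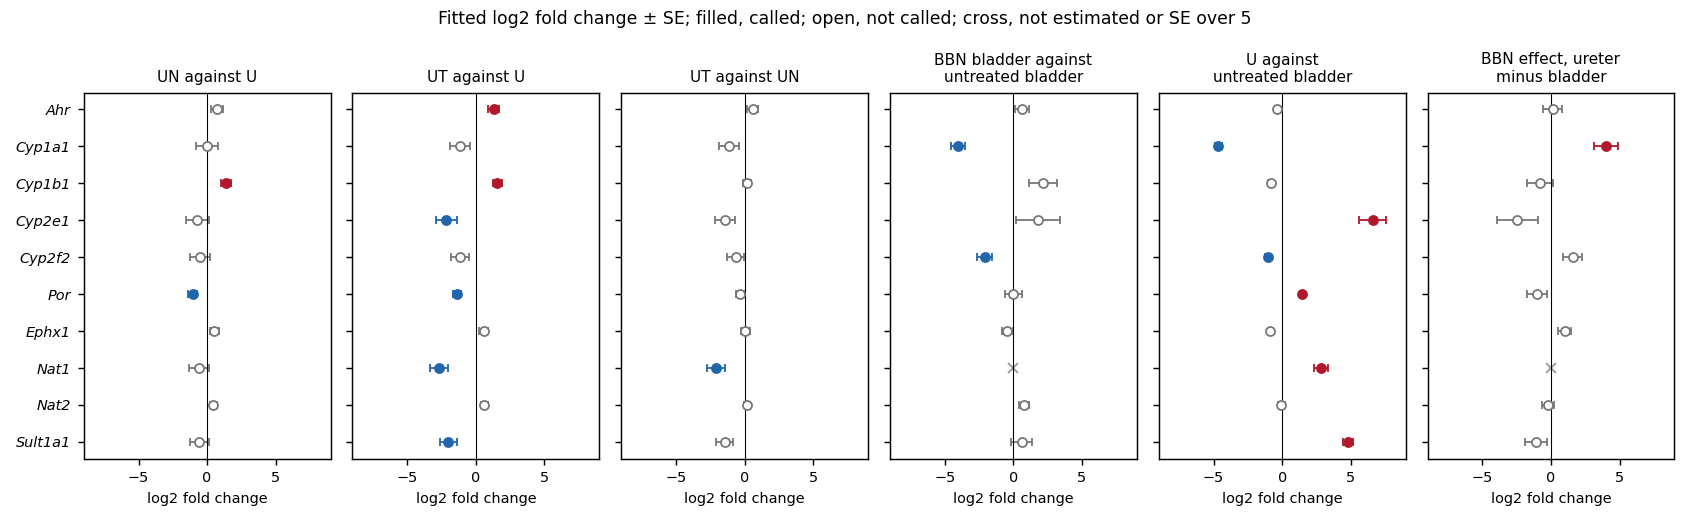
Fitted log2 fold change ± SE of each gene in the 6 comparisons; filled points were called at FDR under 0.1 and at least 2-fold (red higher, blue lower), open points were not, and a cross marks a gene that was not tested or had an SE over 5. Cyp1a1 lies at -4.02 in the bladder and at -0.01 in UN against U, and UT against U holds the most calls among the BBN comparisons.

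Cancerous and noncancerous side were compared next. Nat1, with the dependence described above, was the only member called, 0 of 10 higher against 2.8% of all genes and 1 lower against 8%. Cyp2e1 was at -1.44 ± 0.74 (FDR 0.191) and Sult1a1 at -1.46 ± 0.60 (FDR 0.11), and both were called lower by limma-trend (FDR 0.071 and 0.0636). Within the 6 mice with both sides, Nat1 was lower in UT in 4, and Cyp2e1 and Sult1a1 likewise in 4 of 6. The members' median was -0.51 and that of all genes -0.01. Of 91 pathway genes 8 were higher and 8 lower. Large rises were fitted for Cyp2a5 (5.55), Sult1d1 (4.96) and the nuclear receptor Hnf4a (4.10). With DESeq2 Sult1d1 was at -1.45 (FDR 0.300) and Hnf4a at -0.17 (FDR 0.875). Hnf4a was 125 CPM in UT 4 and changed by -0.10 without it (FDR 0.927), Sult1d1 was not tested without UT 4, and Cyp2a5 missed the threshold without UT 5L (2.90, FDR 0.127). The leading falls, Aldh1a7 (-2.13, which the study listed as lower in this comparison), the methyltransferase Inmt (-2.12), Ces1f (-2.03) and Bche (-1.999), kept their calls under 23, 17, 11 and 12 of 28 alternatives. Without the UN library of highest level they were at -1.54, -1.65, -1.62 and -1.79 (FDR 0.136 to 0.211), and Inmt, Ces1f and Bche were lost without several other libraries as well. With the mouse as a block no gene of the table was called, and 462 had an unadjusted p under 0.05. Adipocyte markers were lower in 4 of 8 and smooth muscle markers in 6 of 8 in this comparison.

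The bladder comparison set BBN bladders beside those of untreated mice. Cyp1a1 and Cyp2f2, the members most abundant there relative to ureter, were lower. Of the 9 members tested 0 were called higher, against 7.22% of 17997 genes, and 2 lower against 5.47%, and the same 2 were the members whose fitted groups did not overlap with lower levels, against 12.5% of genes. The members' median was 0.59 and that of all genes 0.25. Of 108 pathway genes 16 were higher and 19 lower. Of the glucuronidation genes 8 of 12 were called lower and 0 higher, with 3 positive changes and a list median of -2.04. In the same comparison 6 of 10 urothelium markers were lower (median -2.34) and 6 of 8 basal and squamous epithelium markers higher (median 8.19), and their part in the falls was not tested. The lower glucuronidation genes included Ugt1a6b (-2.73 ± 0.29, FDR 9.8e-05), Ugt2b34 (-2.03 ± 0.53, FDR 0.0277) and Ugdh (-2.39 ± 0.49, FDR 0.00758), the enzyme that makes their cofactor. Genes of the Ugt1a cluster share their last exons and may have shared reads. Other large falls were those of the flavin monooxygenase Fmo5, from 6008 to 6765 CPM to a median of 58.2 (-5.75 ± 0.76, FDR 0.000392), the AHR target Ugt1a6a (-3.30 ± 0.40, FDR 0.000233) and the alcohol dehydrogenase Adh1 (-2.99 ± 0.39, FDR 0.000347). The P450s went the other way, with 6 of 22 P450 and flavin monooxygenase genes higher and 2 lower. Cyp2b10 rose from at most 0.139 CPM to a median of 9.87 (7.41 ± 0.84, FDR 0.000146). Cyp2a5, Cyp2c65 and Cyp2a4 had 1 count each over all 3 untreated bladders. Ratios of pooled CPM were 313 for Cyp2a5 (95% exact interval 55.9 to 12370), 39.0 for Cyp2c65 and 39.0 for Cyp2a4 (both 6.81 to 1558). Cyp2a5 was 34.8 CPM in BBN bladder 5, against a BBN median of 2.17, and its fitted change of 7.61 was 6.49 without that library (FDR 0.0083). The calls of Cyp2c65 and Cyp2a4 were each lost with limma-trend (FDR 0.194 and 0.118) and without any 1 untreated bladder (FDR 0.171 to 0.284 and 0.116 to 0.240). BBN bladder 3, of low RNA integrity, had the highest Cyp2c65 level, 4.22 CPM against a BBN median of 0.435. These intervals cover counting error only, the fitted folds of such genes depend on the prior count, and reads of Cyp2a4 and Cyp2a5 may be shared.

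Untreated ureter and untreated bladder of the same mice differed in most members. Cyp2e1 (6.60 ± 0.96, FDR 8.7e-05), Sult1a1 (4.83 ± 0.36, FDR 3.6e-07), Nat1 (2.84 ± 0.51, FDR 0.000427) and Por (1.43 ± 0.15, FDR 6.2e-06) were higher in ureter. With any library left out, Cyp2e1 ranged from 6.07 to 8.93, Sult1a1 from 4.52 to 5.47 and Nat1 from 2.425 to 4.11. Untreated bladder 2 had the highest untreated bladder level of these genes, for Cyp2e1 313 CPM against 33.1 and 14.9. Cyp1a1 (-4.65 ± 0.27, FDR 6.3e-08) and Cyp2f2 (-1.07 ± 0.16, FDR 9e-05) were lower there, the second at a fold just under the limit without U 2L (-0.98). That is 4 of 10 members called higher against 15.7% of 15328 genes and 2 lower against 14.3%. Cyp1b1 (-0.84), Ephx1 (-0.88) and Ahr (-0.36) passed the FDR threshold at under 2-fold, and Nat2 did not differ beyond the spread (-0.06 ± 0.25, FDR 0.856, 95% interval -0.54 to 0.43). In CPM the groups did not overlap for the 4 higher members, against 16.1% of genes, and for 5 with lower levels in U, against 47.3%. These shares are of CPM without TMM scaling. All 8 adipocyte markers were higher and all 10 urothelium markers lower in ureter. Of 87 pathway genes 18 were higher and 29 lower, and all 9 tested glucuronidation genes were lower (median -2.46), several of them Ugt1a genes that may have shared reads (above). Ces1d (6.99 ± 0.79), Ces1f (6.66 ± 0.76), the methyltransferase Nnmt (6.25 ± 0.64) and Cyp2b10 (5.56 ± 0.87) led the higher genes. Ugt2b34 (-6.31 ± 0.22), Fmo5 (-3.03 ± 0.16) and Nqo1 (-2.96 ± 0.15) led the lower ones with Ugt2b35, which had 1 count over the 6 U libraries and a pooled CPM 603 times as high in bladder (95% exact interval 107 to 23890, counting error only).

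Controls are shared here too, since UN, U and both bladder groups enter earlier comparisons. The last comparison tested whether the BBN effect of the noncancerous ureter (UN against U) differed from that of the bladder. Cyp1a1 was the only member called, 1 of 10 higher, that is less lowered in ureter, against 1.65% of 18769 genes, and 0 lower against 0.682%. Cyp1a1 had 0.805 to 2.45 CPM in U, from 13 to 46 counts, and 30.3 to 59.1 CPM in untreated bladder. That left little room for a fall in ureter. With the mouse as a block 3 members were called, Cyp1a1, Cyp2f2 and Ephx1, all in the same direction. Without the 3 bladders of low RNA integrity Por was called too, at -1.47 (FDR 0.0936). Nat1, with at most 8 counts in a BBN bladder, was at -0.02 here. Derived from so small a change, its SE of 6.99 is not a usable measure of spread. Of 111 pathway genes 13 were called higher and 2 lower, and 9 of the 13 belong to the 12 glucuronidation genes, whose list median was 2.52 against -0.12 for all genes. Several of the 9 are genes of the Ugt1a cluster, which may have shared reads (above), so they are not independent. Ugt2b34 (5.68 ± 0.94, FDR 0.0016) rose in ureter, where U had 1.24 to 3.89 CPM, and fell in bladder. Fmo5 (4.70 ± 0.93, FDR 0.00795) and Ugt1a6a (3.03 ± 0.49, FDR 0.00139) fell in bladder and were called in neither direction in UN. Ugt2b35 (6.85 ± 1.70, FDR 0.0382) stayed at or under 6.92 CPM, and its call was lost without untreated bladder 3 (FDR 0.103). The 2 lower genes were Cyp2a4 (-8.12, FDR 0.0811), with 1 count in the untreated bladders and 2 in UN, and Cyp2u1 (-2.22, FDR 0.0811), at most 6.75 CPM and called under 17 of 34 alternatives. The call of Cyp2a4 held under 24 of 34 and was lost at -2.95 (FDR 0.171) with limma-trend, at -5.47 (FDR 0.306) without U 2L, at FDR 0.182 to 0.316 without any 1 untreated bladder, and at -6.68 (FDR 0.196) with the mouse as a replicate block. Urothelium markers were also called higher in 3 of 10 by this test, with 10 of 10 positive and a median of 2.37.

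**Figure D5:**
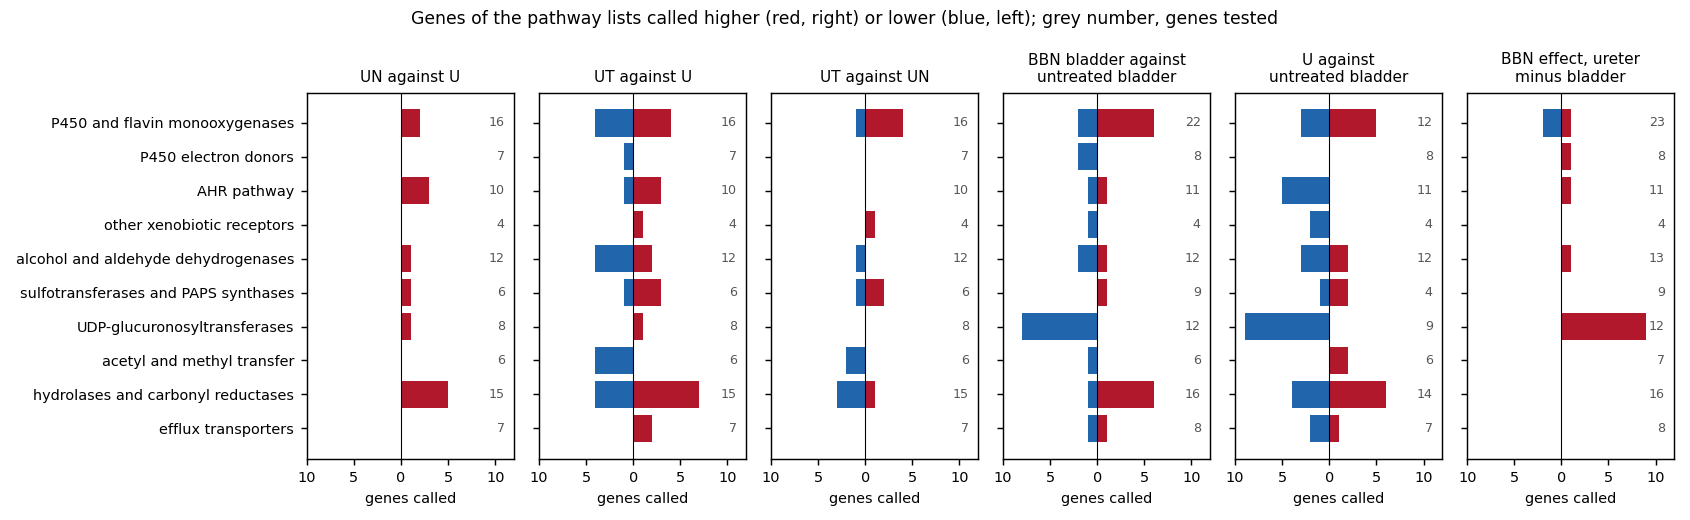
Number of genes called higher (red, to the right) and lower (blue, to the left) in each of the 10 pathway lists for the 6 comparisons, with the number tested in grey. The glucuronidation list is lower in 8 of 12 genes in BBN bladder, lower in 9 of 9 in U against untreated bladder and higher in 9 of 12 in the difference of BBN effects. Its Ugt1a genes may share reads and are not independent.

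Genes that varied most like each member were sought by Pearson's r of log2(CPM + 0.5) after subtraction of the group mean, over 37 libraries and 15374 genes. These values are a description, and libraries of low RNA integrity weigh on them. Cyp2e1 was most like the adipocyte genes Mrap (0.937), Cidec (0.935) and Cfd (0.920), and Sult1a1 like Mc2r (0.911), Amy1 (0.893) and Pxmp2 (0.890), the first an adipocyte receptor gene. Ahr was most like Efnb2 (0.951), Tbx3 (0.9499) and the efflux transporter Abcc4 (0.948), and Cyp2f2 like Tspan12 (0.864), Agmo (0.824) and the glutathione transferase Gstm1 (0.821). Cyp1b1 was closest to Gpd1l (0.916), Polr2b (0.900) and Fig4 (0.898), Por to Ube3b (0.932), Opa1 (0.931) and Usp5 (0.924), and Ephx1 to Clu (0.889), Fgf1 (0.874) and Slc7a4 (0.871). For Cyp1a1 (Enpp2 0.821, Thbd 0.816, Calcrl 0.805), Nat1 (Wdr93 0.825, Nxnl1 0.797, Vegfb 0.790) and Nat2 (Myl12a 0.855, Polr1c 0.853, Med8 0.846) the counts were low. Over the 33 libraries without UN 6 and the 3 bladders of low integrity, the first gene was still the same for Cyp1b1, Sult1a1 and Ephx1, and Med8 fell to 0.605 for Nat2. Among the members the closest pair was Cyp2e1 and Sult1a1 over either set, followed over 37 libraries by Cyp1b1 and Por (0.765, and 0.648 over 33 libraries), Cyp2f2 and Ephx1 (0.720 and 0.649) and Ahr and Ephx1 (0.708 and 0.606). Over 33 libraries the next pairs were Cyp2f2 and Sult1a1 (0.790, and 0.610 over 37) and Cyp2e1 and Cyp2f2 (0.739, and 0.491 over 37).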

How the data were processed

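WTS was done on the 37 libraries described above. The authors deposited 1 table of estimated counts per gene, unscaled, in which 21.1% of nonzero values are fractional, and they were rounded here to whole numbers. Libraries were made with SMARTer HT and Nextera XT kits, and reads were mapped to GRCm38. The submitters' processing notes name TopHat2 2.1.1 and Cuffdiff 2.2.1, and the program that made the counts is not given in the sources used here. All columns matched a sample, so 0 were left unused. Coordinates and exon lengths are from GENCODE vM21 (GRCm38), promoters from RefSeq (GRCm38.p6).

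Groups follow the labels. Genes were filtered with filterByExpr, scaled by TMM and tested with edgeR's quasi-likelihood test (edgeR 4.0.16, limma 3.58.1, R 4.3.3), with p-values adjusted over all genes tested. UT, UN and U shared 1 fit, and the 2 bladder groups, U with untreated bladder, and the difference of BBN effects had fits of their own. Genes were called at an FDR under 0.1 together with a 2-fold change or more. CPM divides by the total of the library column. The 10 members are always named, and of the pathway lists the 4 called genes of largest change in each direction, of which 1 is not reported here. Gsta1, Aldh3a1, Nqo1 in UN, and Ugdh and Ugt2b34 in bladder, were named after their values were seen. Members and lists were chosen with earlier results of these data known, and the lists after the study's own list of genes changed between UT and UN had been read, which holds Cyp2s1 (up) and Sult1a1, Ephx2, Ugt1a6b, Aldh1a7 and glutathione transferases (down). The scripts were tested on simulated data. Other versions were DESeq2 1.42.0, Python 3.11.15, numpy 2.4.6, pandas 2.3.3, scipy 1.17.1 and matplotlib 3.10.9.

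Libraries with the same number in UT, UN and BBN bladder come from the same mouse, so numbers pair them. Deviations from group means correlated at a median of -0.04 in 6 UT and UN pairs of the same mouse and -0.01 in 64 other pairs, at -0.14 in UN and BBN bladder, and at -0.06 in U and untreated bladder. Replicates differed beyond counting noise (smallest chi-square per degree of freedom 6.16). UT 5L and 5R share a mouse, as do both ureters of each untreated mouse, so those libraries are not independent in the fits. Alternatives were DESeq2, limma-trend, other scaling and filters, RNA integrity as a covariate, other sets of libraries, the mouse as a block or random effect, both ureters summed, and each library left out. Leaving out the 3 bladders of low integrity together with UN 6 was chosen after seeing the data.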

Additional observations from a re-analysis of the deposited data

Results flagged for a closer look

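A library stood apart from the rest of its group in 10 of 40 sets of a member and a group, where chance flags about 1 set in 20 if sets are independent. The sets are not, since members share libraries, and the 10 values lie in 8 libraries, so no excess over chance was tested. In UN these were Cyp1a1 at 5.86 CPM in UN 1, Cyp1b1 at 7.27 CPM in UN 6, Cyp2f2 at 768 CPM in UN 4 and Por at 689 CPM in UN 9. In UT it was Ahr at 475 CPM in UT 10. In BBN bladder they were Cyp1b1 at 576 CPM and Cyp2f2 at 597 CPM in BBN bladder 10, Nat1 at 1.26 CPM and Sult1a1 at 46.0 CPM in BBN bladder 1, and Ephx1 at 275 CPM in BBN bladder 8.

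The effect of BBN differed between ureter and bladder, by a test of the difference itself, for Cyp1a1 (4.04, log2) among the members, a gene already low in untreated ureter. Of the pathway genes named by size, it differed for Ugt2b35 (6.85), Ugt2b34 (5.68), Fmo5 (4.70) and Ugt1a6a (3.03), less lowered or more raised in ureter, and for Cyp2a4 (-8.12) and Cyp2u1 (-2.22) in the other direction, calls that held under 24 and 17 of 34 alternatives.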

How the results depend on the processing

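Of the 6 counts of members called, that of UN against U (2) was 0 with both ureters summed and 1 to 2 with any library left out, and that of UT against U (6) was 8 with limma-trend, 8 with mice as random effects, 4 with both ureters summed and 5 to 7 with any library left out. The count of UT against UN (1) was 2 with DESeq2, 3 with limma-trend, 0 with RNA integrity as a covariate, 0 with all 11 UT libraries, 0 with only these 2 groups and 0 to 3 with any library left out. The count in bladder (2) was 3 with DESeq2, 3 with RNA integrity as a covariate, 4 without the 3 bladders of low integrity and 1 to 2 with any library left out, and that of U against untreated bladder (6) was 5 to 7. The count for the difference of BBN effects (1) was 2 without the bladders of low integrity and 2 without these and UN 6. With the mouse as a block, pairing its libraries, the counts were 0 for UT against UN and 3 for the difference of effects, and the block changed no other call of a member. Nat1, under the filter in bladder, differed by -0.223 CPM, -0.398 without the bladders of low integrity (exact permutation p = 0.0476, a setting chosen after seeing the data) and -0.394 to 0.0689 with any library left out. TMM scaling moved the mean levels in untreated bladder to 844 CPM for Cyp2f2, 245 for Por, 82.1 for Ahr and 137 for Ephx1.

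Among the members, changes whose sign turned were those of members not called. Of the pathway genes named as called, Sult1d1 (-1.45) and Hnf4a (-0.17) turned with DESeq2 in UT against UN, and Hnf4a (-0.10) without UT 4. In UN against U, Cyp1a1 was 0.00295 with DESeq2, 0.00343 with RLE scaling, 0.0405 with all 11 UT libraries, 0.00719 with only the 2 groups and -0.77 to 0.21 with any library left out. In UT against UN, RNA integrity as a covariate gave -0.0357 for Cyp1b1 and -0.12 for Nat2, and Ephx1 was -0.0201 with limma-trend, -0.0264 with mice as random effects, -0.0678 with the replicate block and -0.12 to 0.25 with any library left out, where Por ranged from -0.44 to 0.0538. In bladder, RNA integrity as a covariate and leaving out the bladders of low integrity gave -0.00561 and -0.15 for Cyp2e1, 0.34 and 0.44 for Por, and -0.37 and -0.48 for Sult1a1, while Por was 0.0161 with DESeq2, 0.0162 with RLE scaling and -0.15 to 0.14 with any library left out. In U against untreated bladder Nat2 was 0.10 with the integrity covariate and -0.24 to 0.0688 with any library left out. For the difference of effects, Cyp1b1 was 0.91 with the replicate block, Ahr -0.0458 with the covariate, -0.26 without the bladders of low integrity, -0.20 without these and UN 6 and -0.0107 to 0.34 with any library left out, Nat1 0.12 without a filter, 0.91, 1.81 and 1.30 in the former 3 settings and -1.28 to 1.34, Nat2 0.0181 and 0.13 in the second and the third, and Sult1a1 0.0041 in the third. DESeq2 gave no adjusted p for Cyp2e1 in U against untreated bladder. The causes were not tested.

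Over all genes, 1688 were called in UT against UN, but 2653 without a filter, 874 with all 11 UT libraries, 923 with the random effect, 2 with only these groups, 0 with the integrity covariate, 0 with the block (12 libraries of 6 mice), 548 without UN 6, 2535 without UN 3, and 999 to 1115 without UN 2, UN 9 or UT 10. In UN against U 2106 were called, 161 with both ureters summed. In bladder 2283 were called (1299 higher and 984 lower), 5609 with DESeq2 (4444 and 1165), 5506 (4128 and 1378) with a covariate for runs of library code numbers, 1001 to 1035 without any 1 untreated bladder and 3483 without the bladders of low integrity. For the difference of effects 437 were called (309 higher and 128 lower), 999 with DESeq2 (506 of them lower), 656 without UN 6, 156 to 217 without any 1 untreated bladder, 786 with the covariate, 1139 without the bladders of low integrity, 1362 also without UN 6 and 1215 with the block. RLE scaling moved the median of all genes there from -0.12 to -0.22.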
